A study of Mus musculus with 9 samples.

Results

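The genes of TNF, of interleukin-1 (IL-1) and of the inflammasome were followed in RNA sequencing of mouse liver with nonalcoholic steatohepatitis (NASH). The members are 10 genes chosen by symbol, Tnf, Il1a, Il1b, Il1rn, Il1r1, Il18, Nlrp3, Casp1, Casp4 and Pycard, and 9 of the 10 had a row among the 24008 genes listed. Tnf was not analysed here. All 9 genes passed the filter on low counts, which left 14379 genes tested.

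The libraries came from whole liver of 9 male mice, with 1 library per mouse and 3 mice in each of 3 groups. All groups received the NASH diet, high in fat and carbohydrate, from 8 weeks of age. Flox mice, labelled WT, were the controls, with floxed alleles of IRF4, a transcription factor. F4MKO mice carried the same alleles with a Cre driven by the Myl1 promoter of skeletal muscle, so that IRF4 was deleted in muscle and not in liver. F4MKO + FSTL1 mice were F4MKO mice whose gastrocnemius muscle received an adeno-associated virus (AAV8) that carried FSTL1, a secreted glycoprotein, under the muscle creatine kinase promoter. The study gives AAV-GFP, a control virus, to the Flox and F4MKO mice, whereas the labels name no vector. Liver was collected 4 weeks after the virus. The duration of the diet before the virus is given as 24 weeks in the study's results and animal design, and as 12 weeks only in its section on the virus. Libraries are named by group and replicate number, and levels are given as CPM, the counts scaled to library size and composition.

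IL-1alpha and IL-1beta, encoded by Il1a and Il1b, signal through the receptor encoded by Il1r1, and the receptor antagonist encoded by Il1rn occupies the same receptor without signalling. IL-1beta and IL-18 are made as inactive precursors. The inflammasome, in which the sensor NLRP3 assembles with the adaptor ASC (encoded by Pycard), activates caspase-1 (Casp1), which cleaves both precursors. The caspase encoded by mouse Casp4 is activated by intracellular lipopolysaccharide and, like caspase-1, cleaves gasdermin D (Gsdmd) to open pores in the membrane. In liver these genes are known from Kupffer cells and other macrophages, and IL-1 receptors are also found on hepatocytes and stellate cells.

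The genes lay at the following positions (GRCm38, GENCODE vM21), each spanning its exons and introns. Il1a (2:129299610-129309972) and Il1b (2:129364570-129371139) were neighbours on the minus strand of chromosome 2, with 54597 bases between them, and Il1rn (2:24336853-24351494) lay on the plus strand of the same chromosome. Casp1 (9:5298517-5307265) and Casp4 (9:5308828-5336783) were neighbours on the plus strand of chromosome 9, 1562 bases apart, and Il18 (9:50554827-50581840) lay farther along it. Il1r1 was at 1:40225080-40317257 and Nlrp3 at 11:59541568-59566956, both on the plus strand, and Pycard was on the minus strand at 7:127989708-127993867. Exons of Il1a, Il1b and Pycard overlap antisense genes of the annotation, Gm14023, Il1bos and Gm45205. Gm14023 had 9 to 16 counts per library and Il1bos 0 to 2, and the use of strand in counting is not given in the sources used here, so sense and antisense reads of these genes cannot be told apart.

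Promoter sequences are shown for 5 members, Il1rn, Casp4 and Nlrp3 because they were among the genes lower with FSTL1 and hold a motif of NF-kB, the transcription factor downstream of TNF and IL-1 receptors, and Il1a and Il1b because they hold a TATA box at the usual distance from the start. Each run gives the 250 bases before a RefSeq transcript start (GRCm38.p6), 5′ to 3′ on the strand of the gene, with the motif in capitals.
Il1rn (chr2:24336610-24336859, plus strand): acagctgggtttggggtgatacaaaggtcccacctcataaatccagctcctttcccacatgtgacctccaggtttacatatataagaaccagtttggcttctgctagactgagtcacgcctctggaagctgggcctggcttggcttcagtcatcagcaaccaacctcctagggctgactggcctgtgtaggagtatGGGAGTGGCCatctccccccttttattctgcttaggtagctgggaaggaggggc
Casp4 (chr9:5308599-5308848, plus strand): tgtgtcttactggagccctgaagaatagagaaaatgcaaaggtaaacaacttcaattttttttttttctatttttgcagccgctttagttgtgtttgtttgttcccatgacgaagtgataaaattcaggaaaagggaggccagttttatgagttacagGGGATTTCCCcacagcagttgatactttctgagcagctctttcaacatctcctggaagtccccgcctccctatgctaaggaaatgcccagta
Nlrp3 (chr11:59541319-59541568, plus strand): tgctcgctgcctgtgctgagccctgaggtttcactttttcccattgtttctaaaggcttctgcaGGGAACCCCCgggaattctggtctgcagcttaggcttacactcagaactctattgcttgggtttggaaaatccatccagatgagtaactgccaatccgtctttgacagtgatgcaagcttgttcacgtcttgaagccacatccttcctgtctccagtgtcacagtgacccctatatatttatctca
Il1a (chr2:129309973-129310222, minus strand): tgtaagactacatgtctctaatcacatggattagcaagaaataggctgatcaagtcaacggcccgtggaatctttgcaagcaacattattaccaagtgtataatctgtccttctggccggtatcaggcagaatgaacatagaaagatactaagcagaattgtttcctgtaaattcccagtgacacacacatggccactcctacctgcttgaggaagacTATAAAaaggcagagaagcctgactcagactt
Il1b (chr2:129371140-129371389, minus strand): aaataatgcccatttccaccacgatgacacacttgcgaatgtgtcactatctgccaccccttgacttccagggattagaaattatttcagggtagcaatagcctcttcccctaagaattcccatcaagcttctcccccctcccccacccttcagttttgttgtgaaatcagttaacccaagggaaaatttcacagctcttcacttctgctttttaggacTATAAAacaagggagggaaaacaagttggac

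All 9 members were matched in the RefSeq promoter table, by 14 transcript starts among 32851, and each window of 250 bases before and 50 after the start was searched on both strands. The NF-kB motif, GGGA and CC with any 4 bases between them, was present in windows of 3 of the 9 genes, Il1rn, Casp4 and Nlrp3, and in 20.7% of all windows. Its first base lay 54 bases before the start in Il1rn, 92 in Casp4 and 186 in Nlrp3. In Casp4 the same bases fit the motif on either strand. TATAAA was present in windows of 4 genes and in 13.6% of all windows. It lay on the strand of the gene in Il1a, 32 bases before the start, and in Il1b, 31 bases before it, whereas in Il1rn and Il18 it was on the opposite strand. The AP-1 motif TGANTCA was present in Il1rn and Il1a and in 7.81% of all windows. GAGGAA, a core of PU.1 sites, was present in Casp1, Il1a, Nlrp3 and Pycard and in 28.3% of all windows. The C/EBP motif TTGCNNAA was present in Il1r1 and Pycard and in 10.8% of all windows, and the interferon response motif, a pair of GAAA with any 2 bases between them, was in none of the 9 genes and in 3.44% of all windows. The shares are per window, whereas several members have more than 1 window. By window, 4 of the 14 of the members held the NF-kB motif, 4 TATAAA and 4 GAGGAA. The AP-1 motif was in 2 of the 14 and the C/EBP motif in 2. Matches of different motifs did not overlap in these windows. These are matches of letters only.

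Library totals were 20656976 to 24322984 counts, and Pycard, the member with the fewest reads, had 14 to 56 counts per library. Hepatocyte markers were abundant in every library, and skeletal muscle markers summed to 0.981 to 1.62 CPM over 6 genes. Over 10 genes the hepatocyte sum was 107800 to 113500 CPM in Flox and 96520 to 115300 in F4MKO + FSTL1. In F4MKO it was 79190 to 115000 with a median of 113000, so 1 library of that group was lower than the rest. Liver Irf4 does not check a deletion made in muscle. Its level was 4.24 to 6.06 CPM in 8 libraries and 0.467 CPM in F4MKO + FSTL1 replicate 1, which stood apart from the rest for this gene. Liver Fstl1 was 6.15 to 7.62 CPM in Flox, 9.80 to 16.1 in F4MKO and 3.22 to 5.33 in F4MKO + FSTL1. It was therefore lower in the liver of the mice that overexpressed it in muscle than in F4MKO (log2 fold change -1.53 ± 0.22, SE, edgeR adjusted p = 0.0017). By qPCR, the study instead reports liver Fstl1 mRNA as unchanged across these groups.

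Per kilobase of exon, the receptor Il1r1 and Il18 had the highest levels in Flox liver, and the inflammasome sensor and adaptor the lowest. Il1r1 was at 15.4 ± 7.97 CPM per kilobase (SD, n = 3) and Il18 at 11.6 ± 1.90, and these neighbours did not differ beyond their spread. Casp1 followed at 3.34 ± 0.35 CPM per kilobase, then Il1a at 2.69 ± 0.071 and Il1b at 2.26 ± 1.32. The range of Il1b took in Il1a above it and the next gene, Il1rn, below it. Il1rn was at 1.66 ± 0.13 and Casp4 at 1.08 ± 0.13 CPM per kilobase. Nlrp3, at 0.507 ± 0.063, and Pycard, at 0.435 ± 0.038, came last, and their libraries overlapped. The length takes in every annotated exon, 3.8 kilobases for Pycard, almost the whole span of the gene. A shorter transcript would give Pycard a higher level, so its rank rests on the length used. In F4MKO + FSTL1 the same 2 genes were lowest, at 0.264 ± 0.022 for Nlrp3 and 0.224 ± 0.049 for Pycard.

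Between F4MKO and Flox, which asks what loss of IRF4 in muscle does in the liver, no member passed the test. A gene was called at an edgeR adjusted p under 0.05 over all genes tested together with a fold change above 1.5. Of the 9 members, 0 were called, where 0.271% of all genes tested were (39 genes). At an unadjusted p under 0.05 there were 2 members, Il1rn and Casp4, beside 16.9% of all genes. DESeq2 called 0 members as well. The log2 fold change was above 0 for 6 members, and for 49.4% of all genes, and below 0 for 3, with a median of 0.08 and a median over all genes of 0.00.

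Between F4MKO + FSTL1 and F4MKO, which asks what FSTL1 from muscle changes in the livers of IRF4-deficient mice, 4 members were called lower. They were the antagonist Il1rn, the sensor Nlrp3, the adaptor Pycard and the caspase gene Casp4, which fell by 1.96-fold to 2.36-fold. The ligands and the receptor were not called. Among all genes tested, 11.2% were called lower in this comparison and 3.21% higher. The log2 fold change was below 0 for 8 of the 9 members and for 48.6% of all genes, and the median was -0.64 for the members and 0.01 for all genes. Libraries of the groups did not overlap, with F4MKO + FSTL1 lower, for 6 members (Il1b, Il1rn, Nlrp3, Casp1, Casp4 and Pycard) and for 21.1% of all genes.

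Between F4MKO + FSTL1 and Flox, 0 of 9 members were called, and 0.00695% of all genes tested were (1 gene). DESeq2 called 0 members here too. All 9 log2 fold changes were below 0, as were 50.1% of those of all genes, and the median was -0.56. At an unadjusted p under 0.05 there were 7 members, every one except Il1r1 and Il18, beside 9.12% of all genes lower at that p. Libraries did not overlap and were lower for 6 members, Il1a, Il1rn, Nlrp3, Casp1, Casp4 and Pycard, beside 10.7% of all genes. Each group enters 2 of the 3 comparisons, so that their values share libraries.

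**Figure D1:**
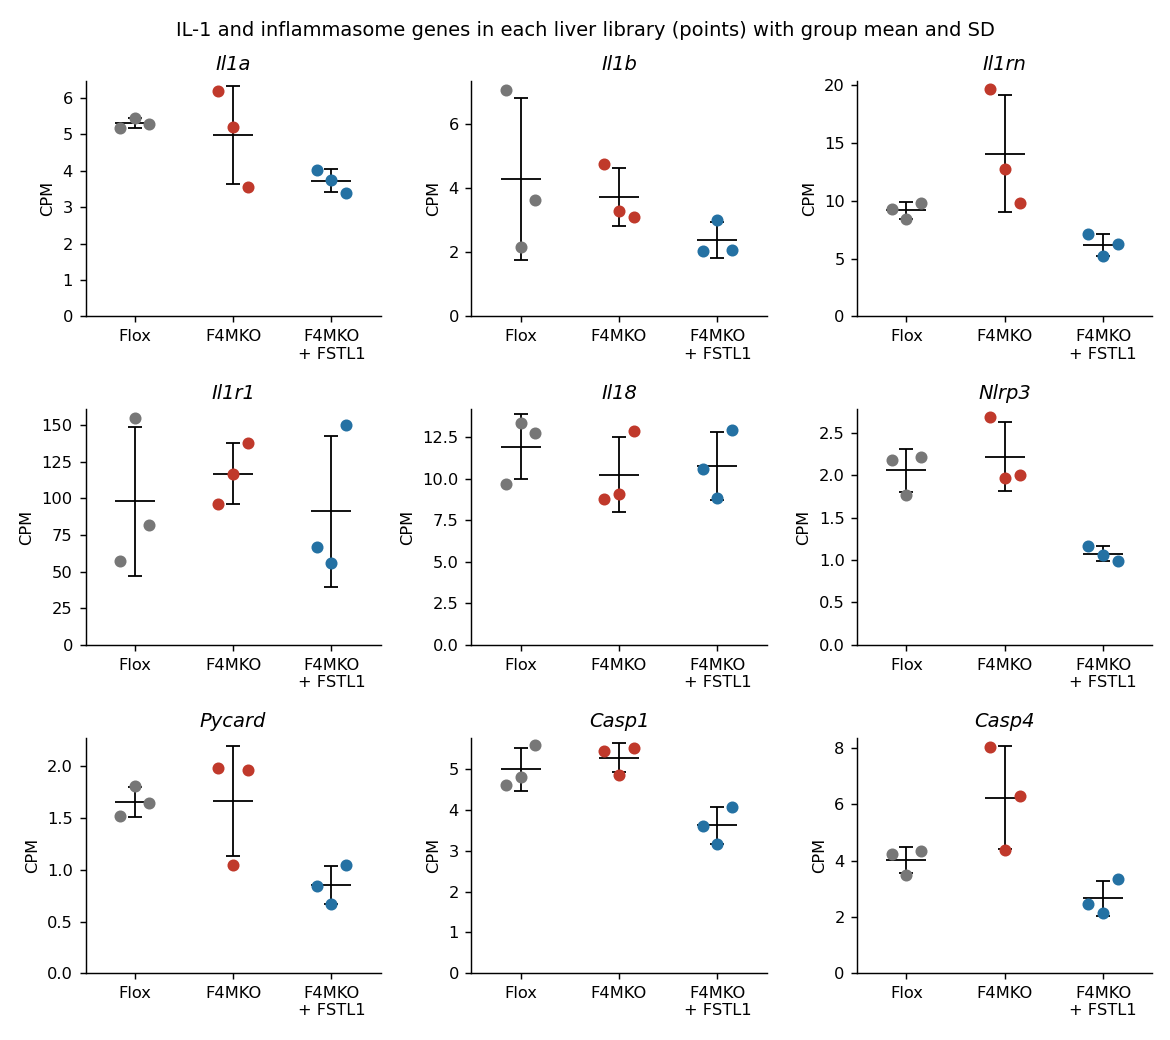
Normalized level (CPM, y axis from 0) of the 9 genes in each liver library, by group (x axis), 3 mice per group. Points are libraries in the order of replicates 1 to 3, and the horizontal bars with whiskers are group means with the SD. The F4MKO + FSTL1 points lie below all F4MKO points for Il1b, Il1rn, Nlrp3, Pycard, Casp1 and Casp4, and mix with them for Il1a, Il1r1 and Il18.

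**Figure D2:**
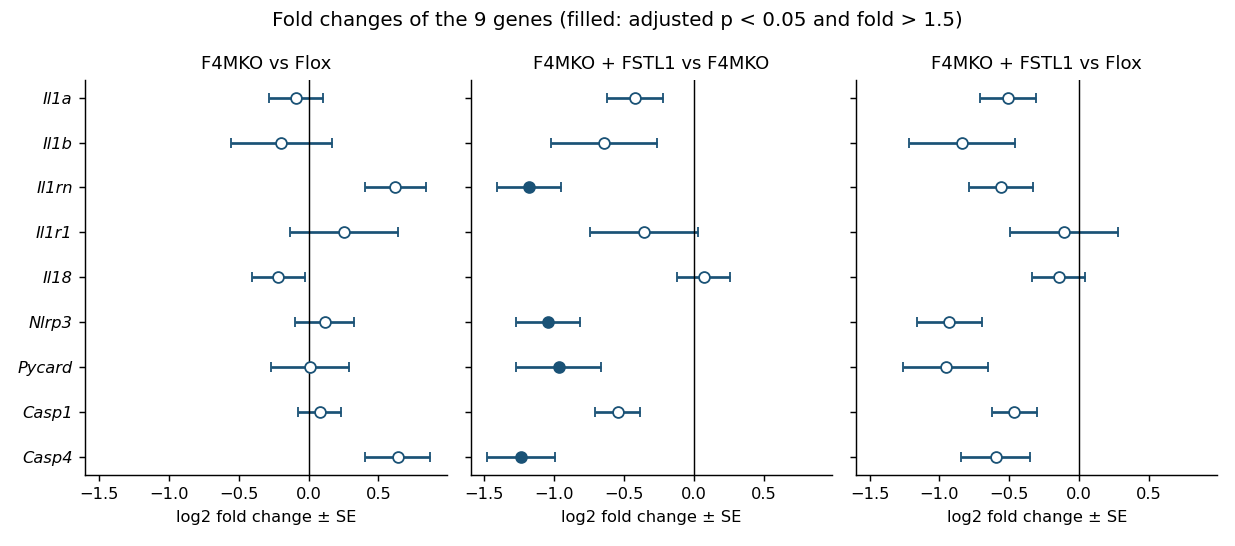
Log2 fold change with its SE (x axis) of the 9 genes (y axis) in the 3 comparisons, from the edgeR fit of all 9 libraries. Filled points are genes called, which are Il1rn, Nlrp3, Pycard and Casp4 in the middle panel, and open points are the others.

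Of the ligands, Il1a was at 5.17, 5.45 and 5.28 CPM in Flox replicates 1 to 3, at 6.19, 5.19 and 3.55 in F4MKO, and at 4.02, 3.75 and 3.40 in F4MKO + FSTL1. Flox libraries were close together, F4MKO libraries reached both above and below them, and all F4MKO + FSTL1 libraries lay under all Flox libraries. The log2 fold change was -0.42 ± 0.20 against F4MKO (SE, edgeR adjusted p = 0.156) and -0.51 ± 0.20 against Flox (adjusted p = 0.299). Without F4MKO replicate 3, the lowest F4MKO library, Il1a was called against F4MKO (-0.61, adjusted p = 0.0266), and without F4MKO replicate 1, the highest, the value was -0.23 (adjusted p = 0.497).

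Il1b, the ligand that needs cleavage by caspase-1, was at 7.09, 2.17 and 3.64 CPM in Flox, at 4.78, 3.31 and 3.11 in F4MKO and at 2.06, 3.03 and 2.09 in F4MKO + FSTL1. Flox was the most variable group, with an SD that was 58.7% of its mean, and its replicate 1 was the highest of all 9 libraries. F4MKO + FSTL1 lay just under F4MKO without overlap, but overlapped Flox. The log2 fold change was -0.64 ± 0.38 against F4MKO (adjusted p = 0.2498), -0.84 ± 0.38 against Flox (adjusted p = 0.367) and -0.20 ± 0.36 for F4MKO against Flox (adjusted p = 0.823). Without Flox replicate 1 the value against Flox was -0.27 for F4MKO + FSTL1 and 0.37 for F4MKO, and without F4MKO replicate 1 the value against F4MKO was -0.42. By qPCR, the study reports liver Il1b as lower in F4MKO than in Flox and as reversed with AAV-FSTL1. In these counts Il1b was not called in any comparison, and its sign with FSTL1 was downward.

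Il18, the other substrate of caspase-1, was at 9.67, 13.3 and 12.7 CPM in Flox, at 8.81, 9.09 and 12.9 in F4MKO and at 10.6, 8.84 and 12.9 in F4MKO + FSTL1. The 3 groups overlapped throughout. Its log2 fold change was 0.07 ± 0.19 between F4MKO + FSTL1 and F4MKO (adjusted p = 0.824), and -0.22 ± 0.19 between F4MKO and Flox (adjusted p = 0.590). The first of these changes sign with library totals in place of composition scaling (-0.12).

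The receptor Il1r1 varied widely within Flox and within F4MKO + FSTL1. It was at 57.5, 154.8 and 81.7 CPM in Flox, at 95.8, 116.8 and 137.8 in F4MKO and at 66.9, 56.1 and 150.2 in F4MKO + FSTL1. In Flox and in F4MKO + FSTL1, 1 library was far above the other libraries of its group, and the SD was 51.7% of the mean in Flox and 56.5% in F4MKO + FSTL1. The log2 fold change was 0.25 ± 0.39 between F4MKO and Flox (adjusted p = 0.782) and -0.36 ± 0.39 between F4MKO + FSTL1 and F4MKO (adjusted p = 0.542). The second of these ran from -0.92 without F4MKO + FSTL1 replicate 3 to -0.10 without F4MKO + FSTL1 replicate 2, and neither difference passed the test.

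The antagonist Il1rn was at 9.27, 8.40 and 9.81 CPM in Flox, at 19.6, 12.7 and 9.78 in F4MKO and at 7.10, 5.24 and 6.27 in F4MKO + FSTL1. F4MKO reached above Flox in 2 libraries and met it in the third, and F4MKO + FSTL1 lay under both groups. It fell by 1.18 ± 0.23 on the log2 scale between F4MKO + FSTL1 and F4MKO (2.27-fold, adjusted p = 0.00505). F4MKO against Flox gave 0.62 ± 0.22 (adjusted p = 0.196), and between F4MKO + FSTL1 and Flox it was -0.56 ± 0.23 (adjusted p = 0.323). F4MKO replicate 1 was the highest library. Without it, Il1rn was still called lower against F4MKO (-0.86, adjusted p = 0.0127), whereas its value for F4MKO against Flox went down to 0.30.

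Since the antagonist and its competing ligands were measured in the same libraries, their counts can be set against each other without any scaling between libraries. The ratio of Il1rn counts to the sum of Il1a and Il1b counts was 0.756, 1.10 and 1.10 in Flox, 1.79, 1.50 and 1.47 in F4MKO, and 1.17, 0.773 and 1.14 in F4MKO + FSTL1. The level of this ratio depends on gene length. Per base of exon it was 0.264, 0.389 and 0.387 in Flox, and 0.629, 0.527 and 0.515 in F4MKO. In F4MKO + FSTL1 it was 0.412, 0.271 and 0.402. By this measure Il1rn was under the summed ligands in every library, which rests on the length used. The length takes in every annotated exon, 5535 bases for Il1rn, 1974 for Il1a and 1907 for Il1b. A shorter Il1rn transcript would give higher values. In both forms all F4MKO libraries lay above all others, and Flox and F4MKO + FSTL1 overlapped. No test was made of this ratio, which was chosen after the values were seen.

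**Figure D3:**
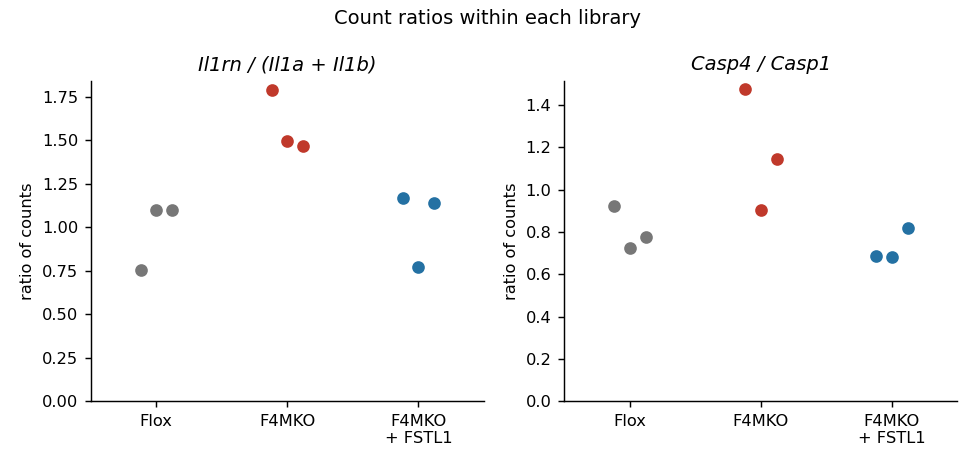
Ratio of counts (y axis from 0) within each library, by group (x axis), for Il1rn over the sum of Il1a and Il1b (left) and for Casp4 over Casp1 (right), with 1 point per library. On the left the F4MKO points (1.47 to 1.79) lie above those of both other groups, and on the right the lowest F4MKO point (0.905) lies under the highest Flox point (0.922).

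Among the inflammasome genes, the sensor Nlrp3 was at 2.18, 1.76 and 2.22 CPM in Flox, at 2.69, 1.97 and 1.996 in F4MKO and at 1.17, 1.06 and 0.992 in F4MKO + FSTL1. Flox and F4MKO overlapped, and every F4MKO + FSTL1 library was below every other library. Nlrp3 fell by 1.05 ± 0.23 on the log2 scale against F4MKO (2.07-fold, adjusted p = 0.00937). Against Flox the log2 fold change was -0.93 ± 0.23, with an unadjusted p = 0.00199 that gave an edgeR adjusted p = 0.127. F4MKO against Flox gave 0.12 ± 0.21 (adjusted p = 0.823). The F4MKO + FSTL1 libraries held 19 to 25 counts of Nlrp3.

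Pycard, which encodes the adaptor that links NLRP3 to caspase-1, was at 1.52, 1.80 and 1.64 CPM in Flox, at 1.98, 1.047 and 1.96 in F4MKO and at 0.841, 0.673 and 1.045 in F4MKO + FSTL1. F4MKO replicate 2 stood next to the F4MKO + FSTL1 libraries, just above their highest, while the other F4MKO libraries were above Flox. Pycard fell by 0.97 ± 0.30 on the log2 scale against F4MKO (1.96-fold, adjusted p = 0.0426), and its value against Flox was -0.96 ± 0.31 (adjusted p = 0.204). The call was close to the threshold. It was lost with DESeq2 (adjusted p = 0.0518) and without any 1 of 7 libraries (Flox replicates 1, 2 and 3, F4MKO replicates 1 and 3, F4MKO + FSTL1 replicates 1 and 2), with adjusted p from 0.0531 to 0.150.

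Casp1, the protease of the complex, was at 4.59, 4.79 and 5.59 CPM in Flox, at 5.45, 4.86 and 5.51 in F4MKO and at 3.598, 3.17 and 4.07 in F4MKO + FSTL1. F4MKO + FSTL1 lay below both other groups, which overlapped. The log2 fold change against F4MKO was -0.55 ± 0.16 (adjusted p = 0.033), a 1.46-fold difference that passed the test and not the limit of 1.5 on its size. It passed both without F4MKO replicate 2 (-0.60) or F4MKO + FSTL1 replicate 3 (-0.63). The adjusted p was instead above the threshold without F4MKO replicate 1 (0.0907) or 3 (0.0716), or F4MKO + FSTL1 replicate 1 (0.0767) or 2 (0.124). Against Flox the value was -0.47 ± 0.16 (adjusted p = 0.238).

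Casp4 was at 4.24, 3.48 and 4.35 CPM in Flox, at 8.03, 4.40 and 6.31 in F4MKO and at 2.48, 2.16 and 3.34 in F4MKO + FSTL1. The 3 groups did not overlap, with Flox in the middle, and Casp4 was the only member whose F4MKO libraries all lay above Flox, as did those of 11.7% of all genes tested. It fell by 1.24 ± 0.24 on the log2 scale between F4MKO + FSTL1 and F4MKO (2.36-fold, adjusted p = 0.00555). F4MKO against Flox gave 0.64 ± 0.23 (adjusted p = 0.205), and between F4MKO + FSTL1 and Flox it was -0.60 ± 0.25 (adjusted p = 0.329). Without F4MKO replicate 1 the first was -1.02 (adjusted p = 0.0233) and the second 0.42 (adjusted p = 0.599).

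The ratio of Casp4 counts to those of its neighbour Casp1 was 0.922, 0.727 and 0.778 in Flox, 1.47, 0.905 and 1.15 in F4MKO, and 0.688, 0.682 and 0.821 in F4MKO + FSTL1. It was highest in F4MKO replicate 1. F4MKO overlapped Flox in 1 library and lay above F4MKO + FSTL1 in all 3.

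Across the members, F4MKO replicate 1 was the highest of the 9 libraries for 5 genes (Il1a, Il1rn, Nlrp3, Casp4 and Pycard), and the lowest library was one of F4MKO + FSTL1 for every member but Il18. On average, Flox ranked in the middle of the 3 groups for Il1rn, Il1r1, Nlrp3, Casp1, Casp4 and Pycard. With F4MKO replicate 1 left out, 3 members stayed called lower between F4MKO + FSTL1 and F4MKO, namely Il1rn, Nlrp3 and Casp4, with Nlrp3 at -0.88 (adjusted p = 0.0401).

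By likeness of profile, measured as the root mean square difference of standardized log2 CPM over the 9 libraries, the genes closest to Il1b were Gm39167 (0.192), Nr4a1 (0.329) and Psph (0.351), where the median over all genes was 1.33. Those closest to Nlrp3 were Csf2rb (0.198), Serpina3f (0.247) and 4930539E08Rik (0.2502), with a median of 1.35. With only 9 libraries this is a description of these samples.

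The rest of the TNF, IL-1, inflammasome and NF-kB pathways was read from 5 lists of 109 genes, of which 102 had a row and 94 were tested. The 8 genes under the filter included Il6 (0 to 3 counts per library), Nos2 and Ptgs2, and 7 genes without a row, among them Lta, Ltb and the IL-36 genes, were not analysed here. Between F4MKO + FSTL1 and F4MKO, 31 of the 94 were called, 29 lower and 2 higher, where 14.4% of all genes were called, 11.2% lower and 3.21% higher. Between F4MKO and Flox 0 of the 94 were called, as against 0.271% of all genes, and between F4MKO + FSTL1 and Flox 0 were called, as against 0.00695%. DESeq2 called 1 of these genes in the former (Casp12, higher) and 6 in the latter, all lower, and over all genes it called 338 and 284. At an unadjusted p under 0.05 there were 17 of the 94 in the former, beside 16.9% of all genes, and 22 in the latter, beside 13.4%.

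**Figure D4:**
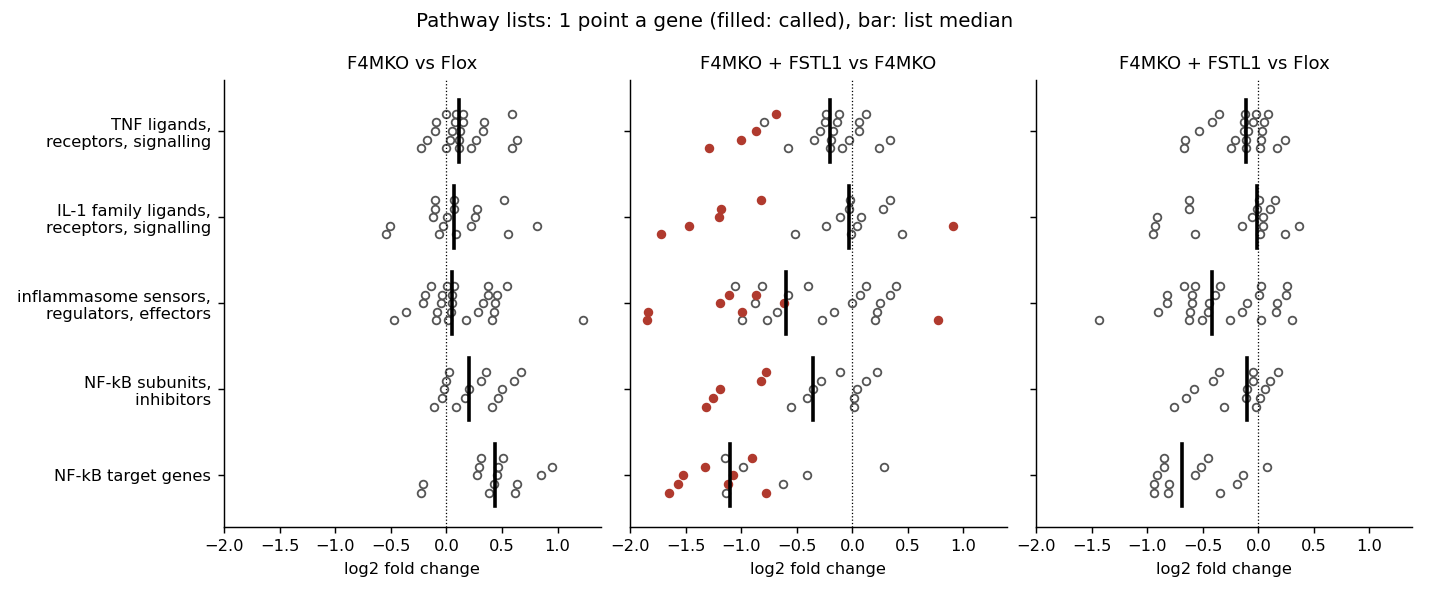
Log2 fold change (x axis) of the genes of 5 pathway lists (y axis) in the 3 comparisons, with 1 point per gene, filled where the gene was called. Bars are list medians, which in the middle panel run from -0.03 for the IL-1 family list to -1.10 for NF-kB target genes. Genes called are in the middle panel only.

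In the TNF list 4 of 22 genes were called lower with FSTL1 (median -0.20). Between F4MKO + FSTL1 and F4MKO 11.2% of all genes were called lower, the share to set beside the count of each list. Tnfaip8, a TNF-induced gene of the TIPE family, was at 5.16, 4.27 and 4.71 CPM in F4MKO and at 1.68, 1.97 and 2.14 in F4MKO + FSTL1 (-1.29 ± 0.19, adjusted p = 0.0017). Tnfaip3 encodes A20, an inhibitor of NF-kB signalling, and was at 16.3, 9.55 and 7.62 CPM against 7.29, 5.14 and 4.23 (-1.01 ± 0.28, adjusted p = 0.0282). Mlkl encodes the membrane-permeating protein of necroptosis (-0.87 ± 0.22, adjusted p = 0.0168). The groups did not overlap for these 3 genes. The call of Tnfaip3 was lost without F4MKO replicate 1 (-0.62), F4MKO + FSTL1 replicate 2 (-0.95) or F4MKO + FSTL1 replicate 3 (-0.84). That of Mlkl was lost without F4MKO replicate 1 (-0.75), F4MKO + FSTL1 replicate 1 (-0.84) or F4MKO + FSTL1 replicate 2 (-0.70). The TNF receptors, looked up after their values were seen, were not called, with -0.17 ± 0.094 for Tnfrsf1a (adjusted p = 0.215) and -0.24 ± 0.14 for Tnfrsf1b (adjusted p = 0.235).

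In the IL-1 family list 5 of 17 genes were called lower and 1 higher (median -0.03). Il1rl2, the receptor of the IL-36 cytokines, was at 1.03, 1.30 and 1.12 CPM in F4MKO and at 0.374, 0.240 and 0.418 in F4MKO + FSTL1 (-1.72 ± 0.31, adjusted p = 0.00374). The accessory chain of the IL-18 receptor, Il18rap, rested on 4 to 21 counts per library (-1.47 ± 0.43, adjusted p = 0.0328). Its call was lost with DESeq2 (adjusted p = 0.0792) and without F4MKO replicate 1 (-1.35) or 3 (-1.29), or F4MKO + FSTL1 replicate 1 (-1.34) or 2 (-1.36). The decoy for IL-18, Il18bp, was at 36.04, 36.3 and 38.4 CPM in F4MKO, at 14.9, 12.5 and 20.8 in F4MKO + FSTL1 and at 26.5, 24.8 and 40.3 in Flox (-1.20 ± 0.20 between the first 2 groups, adjusted p = 0.00312). The binding protein of IL-18 thus fell, whereas Il18 itself was not called. Il1rap, the chain that pairs with IL1R1 to signal, went the other way. It was at 139.8, 133.0 and 160.3 CPM in Flox, at 87.7, 102.6 and 107.5 in F4MKO and at 188.6, 197.3 and 172.4 in F4MKO + FSTL1. The groups did not overlap, and Il1rap rose by 0.91 ± 0.11 on the log2 scale (adjusted p = 0.00122). Its value for F4MKO against Flox was -0.54 ± 0.11 (adjusted p = 0.061). It is named because it was 1 of the 2 pathway genes called higher, and so after its value was seen.

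In the inflammasome list 7 of 26 genes were called lower and 1 higher (median -0.60). Casp12, a caspase next to Casp1 and Casp4 in the same gene cluster, was at 5.48, 4.06 and 2.75 CPM in Flox, at 13.5, 6.49 and 8.82 in F4MKO and at 3.04, 2.31 and 2.66 in F4MKO + FSTL1. All F4MKO libraries lay above both other groups (-1.85 ± 0.30 between F4MKO + FSTL1 and F4MKO, adjusted p = 0.00255). Mefv, which encodes the sensor pyrin, was at 2.33, 2.14 and 2.56 CPM in F4MKO against 0.794, 0.625 and 0.522 (-1.84 ± 0.28, adjusted p = 0.00202). Aim2, the sensor of cytosolic DNA, was at 3.96, 4.36 and 3.67 CPM against 1.59, 1.15 and 2.51 (-1.20 ± 0.29, adjusted p = 0.0144), and its call was lost without F4MKO + FSTL1 replicate 2 (-0.97). Nlrp6, a sensor expressed in hepatocytes and intestine, rose from 118.8, 123.4 and 111.8 CPM to 196.7, 242.6 and 165.5 (0.77 ± 0.13, adjusted p = 0.00304) and was likewise named after its value was seen. With library totals in place of composition scaling it was 0.58 and under the fold limit. The pore-forming substrate Gsdmd was not called (-0.17 ± 0.14, adjusted p = 0.431).

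Of the NF-kB subunits and inhibitors 5 of 15 were called lower (median -0.35). Relb, the subunit of the noncanonical pathway, was at 11.99, 6.37 and 5.79 CPM in F4MKO and at 3.65, 3.80 and 3.13 in F4MKO + FSTL1 (-1.19 ± 0.26, adjusted p = 0.00976), and without F4MKO replicate 1 the value was -0.78. Rel, which encodes c-Rel, rested on 6 to 26 counts per library (-1.32 ± 0.34, adjusted p = 0.0189), and its call was lost without F4MKO replicate 2 (-1.25) or F4MKO + FSTL1 replicate 2 (-1.14). Nfkbid, a nuclear protein of the IkB family, was at -1.26 ± 0.38 (adjusted p = 0.0382) and kept its call without F4MKO replicate 2, F4MKO replicate 3 or F4MKO + FSTL1 replicate 3. It lost it without any 1 of the other 6 libraries, and the value was -0.80 without F4MKO replicate 1.

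Among NF-kB target genes 8 of 14 were called lower, and the median of -1.10 was the lowest of the 5 lists. Vcam1, an adhesion molecule of activated endothelium, was at 19.4, 41.7 and 44.2 CPM in Flox, at 50.4, 63.7 and 49.7 in F4MKO and at 18.7, 13.5 and 22.8 in F4MKO + FSTL1 (-1.57 ± 0.28 between the last 2 groups, adjusted p = 0.00358). Gadd45b, a stress-response gene, was at 5.09, 6.70 and 8.22 CPM in F4MKO against 1.92, 2.45 and 2.56 (-1.53 ± 0.30, adjusted p = 0.0054). Neither gene overlapped between these groups. The selectin gene Sele rested on 2 to 24 counts per library (-1.66 ± 0.45, adjusted p = 0.0231), and its call was lost without F4MKO replicate 1 (-1.46), F4MKO + FSTL1 replicate 1 (-1.56) or F4MKO + FSTL1 replicate 2 (-1.30).

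In whole liver, fewer cells of a type and less RNA per cell cannot be told apart, and markers of several cell types moved with these genes. The 10 markers of recruited monocytes and macrophages were all called lower between F4MKO + FSTL1 and F4MKO (median log2 fold change -1.27), with a summed level of 229.7 to 353.2 CPM in Flox, 358.2 to 531.1 in F4MKO and 150.1 to 206.3 in F4MKO + FSTL1. Of the 10 Kupffer cell markers 6 were called lower (median -0.75), namely Cd5l, Adgre1, Csf1r, C1qa, C1qb and C1qc. Clec4f (-0.29), Vsig4 (-0.41), Timd4 (0.51) and Marco (0.08) were not called, and the last 2 had values above 0. The Kupffer cell list of 10 summed to 691.6 to 1089 CPM in Flox, 779.7 to 886.7 in F4MKO and 405.5 to 656.0 in F4MKO + FSTL1. Neither sum overlapped between F4MKO + FSTL1 and F4MKO, and no marker of either list was at 0 in a whole group. Whether the sums of these lists come from separate populations of macrophages was not tested. Neutrophil markers were sparse, summing to 9.36 to 12.4, 12.5 to 17.6 and 5.43 to 9.14 CPM in the 3 groups in that order, with 1 of 6 tested called lower, and Ngp at 0 in F4MKO + FSTL1. Of 8 lymphocyte markers tested 0 were called in this comparison (median -0.60). The sum over the 9 lymphocyte markers with a row overlapped, at 6.70 to 11.1 CPM in F4MKO and 3.88 to 9.77 in F4MKO + FSTL1. Stellate cell markers were called lower for 6 of 10 genes (median -0.80) and cholangiocyte markers for 4 of 6 tested, beside 11.2% of all genes. The median of the 10 endothelial markers was instead 0.03. Of the hepatocyte markers 2 of 10 were called higher and 1 lower (median 0.03). Between F4MKO and Flox 1 of the 10 recruited macrophage markers was called, higher (median 0.81), and 2 of the 6 cholangiocyte markers tested were called higher (median 1.07). In that comparison the medians of the stellate and Kupffer cell markers were 0.37 and 0.07. The Kupffer cell markers were split, with 6 above 0 (0.05 to 0.21), 4 below 0, and 0 called. Those below were Clec4f (-0.36), Vsig4 (-0.33), Timd4 (-1.26) and Marco (-1.41). The part of these cell types in the changes of the inflammasome genes was not tested.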

How the data were processed

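The authors sequenced total RNA of liver on BGIseq500 (150 bp paired-end, per the labels), and the submitters' processing notes name Trim Galore 0.6.7, HISAT2 2.2.1, featureCounts 2.0.1 and mm10. The deposited values were raw counts per gene and library, without normalization. The gene annotation, the use of strand and the treatment of reads mapping to several genes were not given in the sources used here.

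Counts were tested with edgeR 4.0.16 (R 4.3.3) by the quasi-likelihood test, in 1 fit of all 9 libraries with a mean per group. Genes were kept by filterByExpr (minimum count 10, minimum total 15) and scaled by TMM, with factors from 0.927 to 1.17. The highest factor was that of F4MKO replicate 1. P-values were adjusted by Benjamini-Hochberg over all 14379 genes, and a gene was called at an adjusted p under 0.05 and a fold change above 1.5. The common coefficient of variation was 0.150. The fit was tested on simulated data. Replicates are separate mice.

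Genes named from the pathway lists are the up to 3 called genes with the largest absolute log2 fold change in each list, and other genes are named as chosen after their values were seen. The members and all lists were chosen with earlier results of these data known. Gene length was the union of exons in GENCODE vM21 (GRCm38, the build of mm10), with 1 symbol matched through an older name. DESeq2 1.42.0, other scalings, filters and thresholds, the replicate number as a block, and leaving out each library were tried as alternatives.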

Additional observations from a re-analysis of the deposited data

How the results depend on the processing

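The count of members called between F4MKO + FSTL1 and F4MKO was 4, and 3 to 5 with 1 library left out. It was 3 with DESeq2 or only the 6 libraries compared, 5 with library totals without TMM factors or without the fold limit, and 0 when the fold change was tested against 1.5 itself. Both other comparisons gave 0 members in every alternative run. For the pathway lists the count of 31 genes went to 9 when tested against that fold, and to 14 to 32 with 1 library left out (17 without F4MKO replicate 1, 14 without F4MKO + FSTL1 replicate 2). Between F4MKO and Flox the count was 1 in place of 0 with DESeq2 and without the filter on low counts (Casp12 in both), where the count over all genes went from 39 to 338 and 478, and it was 0 with any library left out. Between F4MKO + FSTL1 and Flox it was 6 with DESeq2, 7 without the filter and 0 to 3 with 1 library left out (3 without F4MKO + FSTL1 replicate 3, namely Gbp2, Icam1 and Il18bp), where the count over all genes went from 1 to 284, 379 and 0 to 101. The cause was not tested.

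Same-numbered libraries came from different mice, and the numbers were not taken to pair the samples in the main fit. The correlations of their deviations were 0.0818, 0.0422 and 0.169 between F4MKO and Flox. They were 0.111, 0.0919 and 0.304 between F4MKO + FSTL1 and F4MKO, and 0.00077, -0.0985 and 0.206 between F4MKO + FSTL1 and Flox. Each number correlated best with itself in the first 2 of these comparisons, and in the last only replicate 3 did. Whether same-numbered libraries shared a batch was not tested. With the replicate block the members called were 0, 4 and 0, and the pathway genes called 1 (Casp12), 31 and 1 (Il18bp), in the same order. The block moved the count over all genes from 39 to 134, from 2070 to 2170 and from 1 to 15.

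In the alternatives run, signs turned only in comparisons in which the member concerned was not called. With library totals, an alternative chosen after seeing the data, which moves the median of all genes to 0.11, -0.18 and -0.08 in the 3 comparisons, Il1a was at 0.040 between F4MKO and Flox and Il18 at -0.12 between F4MKO + FSTL1 and F4MKO. Under the block Pycard was at -0.027 between F4MKO and Flox. With 1 library left out, the log2 fold change between F4MKO and Flox ran from -0.28 to 0.10 for Il1a, from -0.52 to 0.37 for Il1b, from -0.020 to 0.75 for Il1r1, from -0.048 to 0.19 for Nlrp3 and from -0.13 to 0.25 for Pycard. It ran from -0.071 to 0.27 for Il18 between F4MKO + FSTL1 and F4MKO, and from -0.67 to 0.39 for Il1r1 between F4MKO + FSTL1 and Flox. Il1rn, Nlrp3 and Casp4 lost their calls only when tested against that fold. With 3 mice per group, differences of several SEs could remain uncalled, as for Nlrp3 between F4MKO + FSTL1 and Flox (-0.93 ± 0.23).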

Other observations

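Of the other markers, those of red blood cells summed to 263.6 to 362.6 CPM in Flox, 311.2 to 357.3 in F4MKO and 356.9 to 622.9 in F4MKO + FSTL1, with 1 of 5 called higher between F4MKO + FSTL1 and F4MKO. Those of adipocytes summed to 48.2 to 120.3, 111.3 to 128.0 and 67.7 to 217.3 CPM in the same order, with 1 of 3 tested called higher in that comparison.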
